A study of Mus musculus with 6 samples.

Results

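The comparison described here set 3 arrays of NIH3T3 cells with mutant LPAR1 against 3 arrays of NIH3T3 cells with wild-type LPAR1, time point by time point. NIH3T3 is an established line of mouse embryonic fibroblasts. Each genotype was measured at 0, 60 and 120 minutes with 1 Affymetrix array per time, so the 6 arrays form 3 pairs and no condition has a second array. The probe sets used are all probe sets that the array's annotation pairs with 1 gene symbol, 34958 of 45101. Of these, 13 are control probe sets and were left out. The rest covered 18193 genes, each read from the brightest of its probe sets, by mean intensity. A gene was tested if its mean reached an intensity of 39.2, the 40th percentile of genes, which left 10916 genes and set 7277 aside. Values are deposited probe-set intensities, and differences are given as log2(intensity + 16) of mutant minus wild-type arrays. The labels do not state which mutation the receptor carried, whether a receptor gene was introduced, which agent, if any, was added at 0 minutes, or the number of cultures or clones behind the arrays. The standard errors and p-values below rest on how much the difference between mutant and wild-type arrays varied over the 3 times. Each combines the variation of the gene itself (2 degrees of freedom) with that of the genes tested as a whole (7.77). An SE can thus be larger or smaller than the gene's own spread over the times. These errors and p-values do not measure a spread between cultures, and a difference that changes with time counts as error. An effect of the mutation cannot be told apart from one of how each kind of cell was derived.

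LPAR1 is a receptor of the cell surface for lysophosphatidic acid, a lipid of serum. It couples to several classes of heterotrimeric G protein, which lower cyclic AMP and activate phospholipase C and calcium release, among other routes. In fibroblasts, signalling by this receptor is known for changes in the actin cytoskeleton, adhesion to the matrix and transcription through serum response factor.

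The arrays of a time were alike: log2 levels of mutant and wild-type arrays correlated across genes at Pearson's r of 0.994 at 0, 0.993 at 60 and 0.994 at 120 minutes. Mean intensity lay between 299 and 308. The 5'/3' ratio of the Actb controls, which reads RNA quality, was lowest at 0 minutes in both genotypes, at 0.579 in wild-type and 0.505 in mutant cells. That of the Gapdh controls lay between 0.954 and 1.03 in all arrays. The part of RNA quality in the results was not tested. The arrays' fibroblast identity was checked on 14 markers, of which 12 were tested and Fap and Postn lay below the level of the filter in every array. Of the 12, Col1a1, Pdgfrb, Ddr2 and Prrx1 were lower in mutant cells and Col3a1 was higher. The other Prrx1 probe sets above the level of the filter did not pass, at log2 differences of -0.24 to 0.051. The summed intensity of the 14 was 54945 to 56557 in wild-type and 54235 to 54993 in mutant arrays.

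Lpar1 transcript was detected at similar levels in all 6 arrays. Its intensities at 0, 60 and 120 minutes were 1335, 1289.8 and 1289 in wild-type and 1496, 1514 and 1438 in mutant cells. The 3 mutant arrays lay above the 3 wild-type arrays, and the log2 difference was 0.18 ± 0.045 (SE; adjusted p = 0.0207). The call was lost when either array of 0 minutes (adjusted p = 0.0555 and 0.0559) or of 60 minutes (0.102 and 0.103) was left out. Since the probe sets cover the mouse transcript and the mutation is not stated, this value does not check which receptor protein the cells made.

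The other lysophosphatidic acid receptors were at low intensity. Lpar2 and Lpar3 lay below the level of the filter in every array and were not tested. Lpar4 gave 169, 124 and 89.4 in wild-type and 145, 127 and 56.0 in mutant cells, with overlapping ranges and a log2 difference of -0.24 ± 0.11 (adjusted p = 0.146). Lpar6 gave 131, 108 and 114 and 141, 105 and 125, also overlapping (log2 0.053 ± 0.076; adjusted p = 0.674). Among the related receptors for sphingosine 1-phosphate, S1pr2 was lower in mutant cells, from 487, 406 and 404 to 389.9, 307 and 315 (log2 -0.35 ± 0.057; adjusted p = 0.00283). S1pr1 and S1pr3 did not pass, with log2 differences of -0.070 ± 0.11 and 0.074 ± 0.056.

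Enzymes that degrade or make these lipids included the strongest difference of the group. Plpp3, a lipid phosphate phosphatase that dephosphorylates lysophosphatidic acid outside the cell, had intensities of 935, 829 and 1084 in wild-type and 385, 326 and 280.2 in mutant cells. Every mutant array lay below every wild-type array, the fold was 2.79, and both probe sets of the gene gave a like value (log2 -1.48 ± 0.11 and -1.52; adjusted p = 1.94e-05). Plpp2, a phosphatase of the same family, went from 660.0, 604 and 633 to 474, 456 and 479.8 (log2 -0.42 ± 0.053), while Plpp1 gave 0.00080 ± 0.043 (adjusted p = 0.992). Sphk1, which makes sphingosine 1-phosphate, was lower within each time (log2 -0.30 ± 0.066), and Sgpl1, the lyase that degrades it, was higher (log2 0.21 ± 0.049). In all, 2 of the 15 tested members of the list of lysophospholipid receptors and enzymes were higher and 4 lower. With either array of 0 minutes left out, Lpar1 and Sgpl1 did not pass, and 4 members were lower.

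Across all genes, 2112 of 10916 tested genes passed at an adjusted p of 0.05, which is 19.3%: 1138 were higher in mutant cells (10.4%) and 974 lower (8.92%). Most of these differences were small. The median was 0.27 among the higher and -0.30 among the lower genes, against a median SE of 0.066 and a median difference of 0.015 over all genes tested. Because the fit compares arrays within times, it favours genes whose difference is alike at all 3 times. The share that passed rose with level, from 9.48% in the dimmest of 5 equal bins of genes to 27.0% in the brightest, as the median SE went from 0.0999 to 0.0468. Courses over time are described below from the values of the arrays and were not tested. At least 1.5-fold differences that passed were seen for 187 genes, 74 higher and 113 lower. By fold alone, 122 genes (1.12%) differed by at least 1.5-fold with 1 sign at every time, 48 higher (0.44%) and 74 lower (0.678%); at an offset of 64 this count was 74. The count of 2112 rests on comparing arrays of the same time: with the block of time left out, 89 genes passed, 37 higher and 52 lower. Leaving out any 1 array of 0 or 60 minutes gave 1373 to 1402 genes, and without an array of 60 minutes fewer were higher (575 to 587) than lower (797 to 798). With time as a term, the partner of a left-out array gives no information on genotype. Each fit with 1 array left out, here and below, thus rests on the pairs of the other times.

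**Figure D1:**
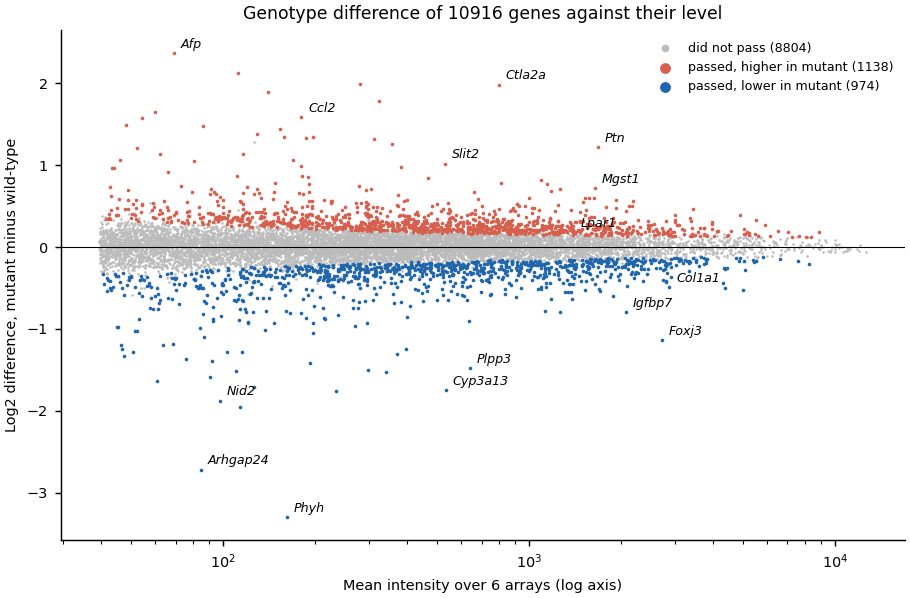
Log2 difference of mutant minus wild-type (vertical axis) against mean intensity over the 6 arrays (horizontal log axis) for the 10916 genes tested; red and blue points are the 1138 higher and 974 lower genes that passed and grey points the rest. Large differences lie at low and middle intensity, with Phyh (-3.29) and Arhgap24 (-2.72) lowest and Afp (2.36) highest, while Lpar1 lies near the edge of the grey band.

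Ctla2a and Ctla2b were among the genes with the largest higher values in mutant cells. Ctla2a, whose product inhibits cysteine proteases, had intensities of 311, 311 and 313 in wild-type and 1297, 1339 and 1199 in mutant cells. The ranges were far apart, and the level changed little over time in either genotype (log2 1.98 ± 0.055, a fold of 3.95; adjusted p = 5.60e-08). Its paralog Ctla2b gave 162, 139.5 and 111 and 593, 525 and 414, and fell over time by a like amount in both genotypes (log2 1.78 ± 0.060; adjusted p = 2.38e-07).

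Promoters of both genes are printed because the genes neighbour each other among the tested genes and were higher together. That of Ccl8, treated next, is printed too. Each is RefSeq's promoter window in build GRCm38.p6, 250 bases before to 50 bases after an annotated start, written 5' to 3' on the gene's strand. Capitals mark the 2 motifs found, the TATA box TATAAA and the AP-1 site TGANTCA. A kappa-B motif was also searched and had no match. Motifs were searched on both strands and do not overlap each other here.
Ctla2a, chr13:60936576-60936875, minus strand: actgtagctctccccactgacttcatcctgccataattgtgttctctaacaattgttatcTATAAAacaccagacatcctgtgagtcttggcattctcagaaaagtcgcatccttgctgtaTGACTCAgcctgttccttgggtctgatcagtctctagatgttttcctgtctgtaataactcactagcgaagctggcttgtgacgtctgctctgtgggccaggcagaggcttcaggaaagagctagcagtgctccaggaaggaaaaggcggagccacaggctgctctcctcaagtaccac
Ctla2b, chr13:60897398-60897697, minus strand: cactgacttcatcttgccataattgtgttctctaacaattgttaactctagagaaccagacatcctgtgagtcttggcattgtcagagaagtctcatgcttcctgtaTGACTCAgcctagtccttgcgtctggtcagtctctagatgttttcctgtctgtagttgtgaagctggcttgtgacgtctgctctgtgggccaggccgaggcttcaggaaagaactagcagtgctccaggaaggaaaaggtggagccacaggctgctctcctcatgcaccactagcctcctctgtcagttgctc
Ccl8, chr11:82114935-82115234, plus strand: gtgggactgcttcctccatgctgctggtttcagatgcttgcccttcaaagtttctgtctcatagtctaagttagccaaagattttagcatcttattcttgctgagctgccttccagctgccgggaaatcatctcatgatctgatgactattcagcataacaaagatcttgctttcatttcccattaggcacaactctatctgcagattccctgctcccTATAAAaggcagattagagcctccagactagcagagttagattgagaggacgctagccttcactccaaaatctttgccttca
Ctla2a has a second annotated start whose window overlaps the one printed. In an alignment of the 2 Ctla2 windows 255 of 278 aligned bases were identical (91.7%). Whether the probes of one transcript also bind the other was not tested. Both windows hold the AP-1 letters TGACTCA, at -129 from the start in Ctla2a and -143 in Ctla2b, and the Ctla2a window holds TATAAA at -190. The Ccl8 window holds TATAAA at -32 and no other of these motifs. Of 32851 promoter windows in the table, 13.6% hold TATAAA, 7.81% TGANTCA and 0.411% the kappa-B motif, and a match is a description of the letters only.

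The chemokine genes Ccl2, Ccl7 and Ccl8, whose products attract monocytes and other leukocytes, were all higher in mutant cells. They neighbour each other in RefSeq's order of the tested genes, which leaves out untested genes that may lie between them. Ccl2 had intensities of 58.2, 112 and 70.5 in wild-type and 185, 410.3 and 244 in mutant cells, highest at 60 minutes in both genotypes (log2 1.59 ± 0.080; adjusted p = 1.74e-06). Ccl7 followed the same course, from 88.3, 139 and 81.4 to 288, 387 and 196 (log2 1.35 ± 0.087; adjusted p = 9.30e-06). Ccl8 was flat over time, at 67.6, 62.3 and 69.7 and 161, 171 and 163 (log2 1.13 ± 0.081; adjusted p = 1.87e-05). Mutant and wild-type ranges did not overlap for any of these genes.

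Other genes were among the 25 with the largest higher difference. Ptn, which encodes the heparin-binding growth factor pleiotrophin, was the most abundant of them and went from 974, 998 and 1042 to 2369.9, 2392 and 2300.2 (log2 1.22 ± 0.047, a fold of 2.32; adjusted p = 3.70e-07). Its 2 other probe sets gave 1.38 and 0.35. Pdk4, a kinase that inhibits pyruvate dehydrogenase, had 130.4, 59.4 and 57.5 in wild-type and 349, 170.1 and 179 in mutant cells, falling after 0 minutes in both (log2 1.34 ± 0.073). Acsbg1, an acyl-CoA synthetase, went from 76.2, 68.6 and 47.1 to 246, 207 and 131 (log2 1.38 ± 0.084). Olfm1, an extracellular glycoprotein of the olfactomedin family, went from 205, 167 and 142 to 502, 454 and 391 (log2 1.32 ± 0.063), and Cytip, which binds cytohesin, from 91.7, 108 and 97.1 to 254, 287 and 280.0 (log2 1.33 ± 0.068). The remaining genes of ranks 13 to 25 were Gxylt2 (log2 1.26), Epha7 (1.21), Atp8a2 (1.14), Akr1c12 (1.07), Plac8 (1.06) and Llcfc1 (1.05). The ephrin receptor gene Epha7 had a difference that narrowed from 1.70 at 0 to 1.33 at 60 and 0.60 at 120 minutes, with every wild-type array below the level of the filter.

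Among genes lower in mutant cells, several went from a clear intensity to below the level of the filter. Phyh, an enzyme of peroxisomes needed to degrade phytanic acid, had 337, 309 and 271 in wild-type and 20.4, 15.2 and 14.7 in mutant cells (adjusted p = 4.52e-08). Arhgap24, which encodes a GTPase-activating protein that switches off Rac and Cdc42, had 159.5, 175 and 142 and 10.01, 12.2 and 9.23 (adjusted p = 2.38e-07). The size of such a difference depends on the offset: for Phyh it was -3.29 ± 0.083 at an offset of 16, -4.12 at 1 and -2.19 at 64, and for Arhgap24 -2.72 ± 0.095, -3.80 and -1.58. In all, 5 genes were above 2 times the filter level in every wild-type array and below that level in every mutant array: Phyh, Arhgap24, the basement membrane gene Nid2, Sorbs2 and Dach2. The reverse held for Afp, AI662270, Adam22 and Aldh1l1. Each of these readings is of 1 probe set. Others, below the filter level, gave 0.090 for Arhgap24, -0.10 to 0.14 for Sorbs2, -0.071 for Adam22 and 0.085 for Aldh1l1. Those of Dach2 (-1.23) and Afp (0.115 to 1.9), also below it, and of AI662270 (1.79), above it, had the sign of the set used. Afp, the fetal serum protein alpha-fetoprotein, had 7.04, 15.8 and 12.5 in wild-type and 138, 120.2 and 119 in mutant cells.

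Of the other genes with large lower values, Cyp3a13, Cxxc5 and Ucma were above the level of the filter in every array of both genotypes. Cyp3a13, a cytochrome P450 enzyme, had 931, 791 and 771 in wild-type and 275, 241 and 197 in mutant cells (log2 -1.75 ± 0.063, a fold of 3.36; adjusted p = 2.38e-07). Cxxc5, a zinc finger protein, went from 264, 217 and 374 to 83.5, 65.6 and 151 and was highest at 120 minutes in both genotypes (log2 -1.41 ± 0.080). Ucma, a secreted matrix protein, neighbours Phyh in RefSeq's order of the tested genes and went from 559.6, 544 and 584 to 235, 242 and 208 (log2 -1.24 ± 0.070), with its other probe set at -1.20. Dmd, which encodes dystrophin, the link between actin and the membrane, went from 71.9, 77.4 and 86.5 to 24.4, 22.4 and 22.3 (log2 -1.28 ± 0.11, and -0.71 at an offset of 64). Its mutant arrays were all below the level of the filter. The others of ranks 13 to 25, beside genes named elsewhere, were Htr1b (log2 -1.39, but -0.10 at its other probe set), Arhgap44 (-1.37), Zfp503 (-1.33), Armh4 (-1.28) and Lmo7 (-1.28). For Zfp503 the other probe set, below the level of the filter, gave 0.0025. The probe set used for Zfp503 was below that level in every mutant array, and those of Htr1b and Arhgap44 in 2 mutant arrays each.

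**Figure D2:**
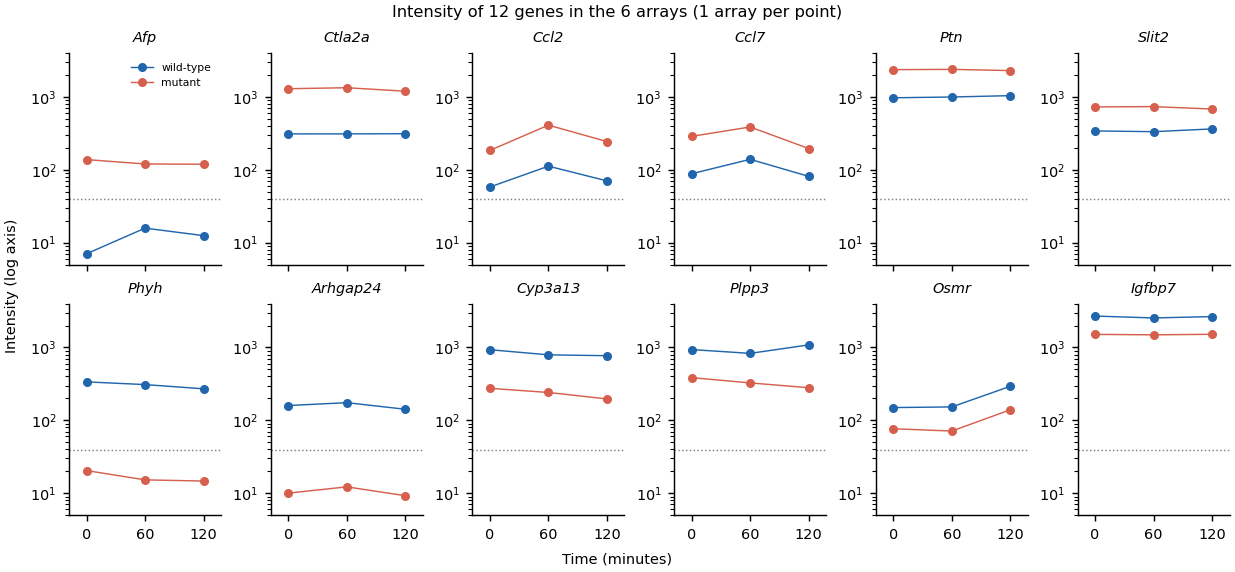
Intensity on a log axis in each of the 6 arrays for 12 genes, with time in minutes on the horizontal axis; each point is 1 array, blue wild-type and red mutant, and the dotted line marks the filter level of 39.2. The genotypes are apart at each of the 3 times in every panel, Ccl2 and Ccl7 peak at 60 minutes in both genotypes, and Phyh and Arhgap24 lie below the dotted line in mutant and above it in wild-type cells.

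Genes that neighbour each other were also looked at beyond the chemokines. Among tested genes in RefSeq's order, 5 runs of adjacent genes with passing, at least 1.5-fold differences in 1 direction held 11 of 186 such genes. Besides the Ccl, Ctla2 and Phyh with Ucma runs, these were Osmr with Lifr, both lower, and Adam22 with Dbf4, both higher. Osmr and Lifr encode receptor chains for oncostatin M and leukaemia inhibitory factor. Osmr had 149.6, 153 and 293 in wild-type and 76.6, 71.3 and 139.5 in mutant cells, rising at 120 minutes in both (log2 -0.93 ± 0.074; adjusted p = 4.11e-05). Lifr had 138, 98.9 and 134 and 48.1, 43.1 and 55.3 (log2 -1.10 ± 0.092; adjusted p = 5.47e-05). Dbf4, which activates the replication kinase Cdc7, had 1459.6, 1382 and 899 and 2185, 2029 and 1455 (log2 0.60 ± 0.047), with ranges that overlapped across times but not within a time.

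Gene lists are described next from the receptor inward, each against the 10.4% of tested genes that were higher and the 8.92% that were lower. A member below the level of the filter in every array of 1 genotype was tested only through the other, where it is high, so that its call is in part set by the filter. Among list members this holds for Afp, Adam22, Aldh1l1, Akr1c12, Epha7, Pde1c and Cdh5 on the higher side and for Phyh, Nid2, Dach2, Dlk1 and Ccn5 among the lower ones, and for Cmpk2, an interferon-stimulated gene that was higher and was named after its values were seen. It also holds for genes named above for the size of their difference: AI662270 and Atp8a2, which were higher, and Arhgap24, Sorbs2, Dmd and Zfp503, which were lower. The shares describe the lists and are no test of them, and lists of abundant genes have more calls for the same size of difference.

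Among signalling components next to the receptor, 16.7% of the G protein subunits passed. Of the RGS proteins, arrestins and receptor kinases 14.3% did, against 19.3% of all genes tested. Of 18 heterotrimeric G protein subunits, 2 were higher and 1 lower. The lower one was Gng11, a gamma subunit, from 317, 288 and 296 to 207, 200.2 and 169 (log2 -0.61 ± 0.070; adjusted p = 0.000376). Gng12 was higher by 0.23 ± 0.046, with its other probe set at -0.037, and Gnb1 by 0.15 ± 0.042, though the probe sets of Gnb1 disagree and their mean gave -0.0063. Of 14 RGS proteins, arrestins and receptor kinases, 2 were higher, Rgs9 (log2 0.28 ± 0.083) and Grk6 (0.22 ± 0.063), and with 1 array left out the counts ran from 0 to 5 higher and 0 to 1 lower.

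In the cyclic AMP branch, 5 of 21 tested enzymes and effectors were higher and 1 lower (median 0.072). Pde3a, a phosphodiesterase that degrades cyclic AMP, went from 76.0, 68.5 and 60.1 to 126, 109 and 119 (log2 0.68 ± 0.088; adjusted p = 0.000797). The phosphodiesterase Pde1c (0.40 ± 0.10; below the level of the filter in all wild-type arrays), the adenylyl cyclase Adcy5 (0.32 ± 0.089) and the regulatory subunit of protein kinase A Prkar2b (0.29 ± 0.051) were also higher. Akap12, a scaffold that anchors protein kinase A, was lower, from 767, 735 and 674 to 619.7, 586 and 539 (log2 -0.31 ± 0.050).

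In the branch of phospholipase C and calcium, 2 of 25 members were higher and 4 lower (median -0.074). Plcb4, a phospholipase C that G proteins activate, was 45.8, 36.9 and 71.6 in wild-type and 105, 94.3 and 84.0 in mutant cells, and its log2 difference went from 0.97 and 1.06 at 0 and 60 to 0.19 at 120 minutes (adjusted p = 0.00878). Its 4 other probe sets, all below the level of the filter, gave -0.28 to 0.26. The inositol trisphosphate receptors Itpr2 and Itpr3, calcium channels of the endoplasmic reticulum, were lower. Itpr2 went from 985, 821 and 687 to 649, 558 and 471 (log2 -0.55 ± 0.051; adjusted p = 9.03e-05) and Itpr3 had a difference of -0.36 ± 0.047.

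Contractile and smooth muscle genes that serum response factor controls gave 4 higher and 7 lower of 27 (median -0.067), and 2 to 4 higher and 4 to 5 lower with 1 array left out. Tagln, an actin-binding protein, rose after 0 minutes in both genotypes and was lower in mutant cells at each time, at 58.2, 569.9 and 871 in wild-type and 2.21, 316 and 405 in mutant cells. Its log2 difference was -2.03 at 0, -0.82 at 60 and -1.07 at 120 minutes, and the mean of -1.31 became -0.87 at an offset of 64. Mylk, a kinase of myosin light chain, was higher, from 102, 102 and 109 to 202, 202 and 167 (log2 0.78 ± 0.087; adjusted p = 0.000316), with other probe sets at 0.65 and 0.055. Actg2 was higher by 0.35 ± 0.099, and Smtn and Zyx were lower (-0.30 ± 0.078 and -0.28 ± 0.073). The abundant actin regulator Pfn2 was higher, as were its 2 other probe sets, from 1343, 1222 and 1327 to 2078, 1877 and 1943 (log2 0.59 ± 0.044), and Raph1, which carries the actin regulators of the leading edge, was lower, as were its 2 other probe sets, from 1337, 1451 and 1546 to 838, 908 and 1027 (log2 -0.64 ± 0.047).

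Integrins, the receptors that hold cells to the matrix, gave 2 higher and 5 lower of 17 (median -0.059). The beta 1 subunit Itgb1, partner of most fibroblast integrins, went from 1517, 1719 and 1834 to 1079, 1291 and 1433 with no overlap (log2 -0.42 ± 0.047; adjusted p = 0.000328). Itgb5 (-0.36 ± 0.047) and Itga6 (-0.35 ± 0.046) were lower at like intensities, and Itgb3 (-0.50 ± 0.13) and Itga1 (-0.50 ± 0.12) at low ones. With 1 array left out the counts ran from 0 to 3 higher and 3 to 6 lower, and were 3 and 3 without an array of 120 minutes.

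Genes of the matrix itself were lower in larger numbers. Of 29 collagens and collagen-processing enzymes, 17 were lower and 2 higher (median -0.17). Col1a1, the main chain of type I collagen, went from 3501, 3059 and 3519.8 to 2334, 2388 and 2411, with every mutant array below every wild-type array (log2 -0.49 ± 0.050; adjusted p = 0.000186). Col11a1 went from 1772, 1569.7 and 1540.2 to 1115, 1179 and 1026 (log2 -0.55 ± 0.056). Enzymes that modify or cross-link collagen were among the lower ones: the prolyl hydroxylase P3h3 from 299, 257 and 250.7 to 172, 166 and 128 (log2 -0.74 ± 0.075), the lysyl oxidase Loxl4 (-0.68 ± 0.083) and the lysyl hydroxylase Plod2 (-0.35 ± 0.066). Col3a1, of type III collagen, went the other way, from 8299.8, 8111 and 8531 to 9500.2, 9419 and 9361 (log2 0.18 ± 0.035; adjusted p = 0.00660).

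Of 18 basement membrane genes, 10 were lower and none was higher (median -0.22). Nid1 and Nid2, the nidogens that join laminin to type IV collagen, were both among them. Nid1 went from 1565, 1520.0 and 1692 to 1142, 1024 and 1086 (log2 -0.55 ± 0.051) and Nid2 from 166, 161 and 160.1 to 35.5, 32.8 and 29.6 (log2 -1.88 ± 0.085, and -1.23 at an offset of 64). The chains of type IV collagen Col4a1 and Col4a2 rose at 120 minutes in both genotypes and were lower in mutant cells within each time (-0.42 ± 0.046 and -0.54 ± 0.045). The laminin chain Lama4 went from 582, 525 and 519 to 389, 372 and 382 (log2 -0.49 ± 0.057). Over the fits that left out 1 array, 9 to 10 members of this list and 14 to 15 of the collagen list passed.

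Proteoglycans and elastic fibre genes gave 2 higher and 9 lower of 25 (median -0.17). Prelp, a small proteoglycan, went from 119, 124 and 149.5 to 64.1, 67.5 and 65.3 (log2 -0.84 ± 0.089), and Ltbp2, which binds elastic fibres, from 433, 381 and 605 to 312, 232 and 322 (log2 -0.67 ± 0.079). Ogn (0.46 ± 0.060) and Mfap5 (0.44 ± 0.069) were higher. Of 19 matricellular glycoproteins, secreted proteins that modulate adhesion, 4 were higher and 8 lower (median -0.086). The abundant insulin-like growth factor binding protein Igfbp7 went from 2698, 2541 and 2653 to 1511, 1490.3 and 1516 (log2 -0.80 ± 0.042; adjusted p = 2.49e-06), with its other 2 probe sets, below the level of the filter, at -0.37 and -0.31. Ccn5 (-1.19 ± 0.10) and Tnc (-0.79 ± 0.086) were lower, Thbs1 rose from 0 to 60 minutes in both genotypes and was lower in mutant cells (-0.59 ± 0.050), and Spon2 was higher, from 703, 603 and 472 to 1242, 1015 and 844 (log2 0.79 ± 0.050).

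Matrix proteases and their inhibitors gave 4 higher and 8 lower of 28 (median -0.091). Serpinf1, which encodes pigment epithelium-derived factor, was among the brightest genes and went from 5301, 4964 and 5117 to 3681, 3649.6 and 3516 (log2 -0.50 ± 0.039; adjusted p = 3.61e-05). The inhibitor Timp1 (-0.51 ± 0.078) and the membrane protease Mmp16 (-0.43 ± 0.085) were lower and Mmp11 was higher (0.43 ± 0.063). Among the 10 abundant genes with the largest lower differences were Srpx2, a secreted protein, from 1721, 1569.9 and 1528 to 1005, 899 and 865 (log2 -0.79 ± 0.045), Ccdc80 (-0.53 ± 0.044) and Flrt2 (-0.63 ± 0.055), while Ptn and F2r were among the 10 with the largest higher ones.

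**Figure D3:**
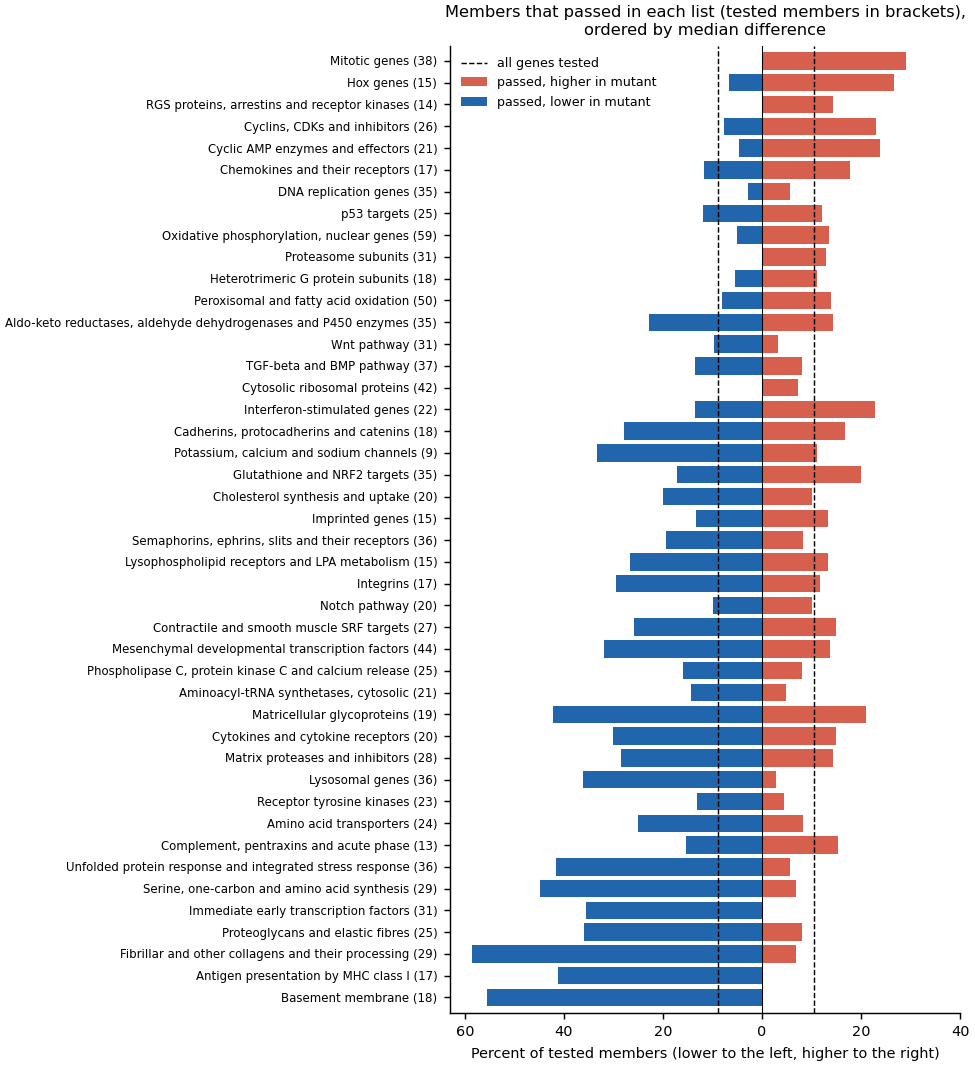
Share of the tested members of each of 44 gene lists that passed lower (blue, to the left) and higher (red, to the right), in percent, with lists ordered by median difference and the dashed lines at the shares of all genes tested, 8.92% lower and 10.4% higher. Collagens (17 of 29) and basement membrane genes (10 of 18) reach farthest to the left, and mitotic genes (11 of 38) farthest to the right.

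Cell contact and guidance genes were mixed. Of 18 cadherins, protocadherins and catenins, 3 were higher and 5 lower. Cdh5, the cadherin of endothelial cells, went from 22.4, 22.996 and 27.4 to 64.6, 61.4 and 62.1 (log2 0.97 ± 0.10, with its other probe set at 0.066), and Cdh1, the cadherin of epithelia, from 149, 133 and 104 to 109, 89.3 and 66.0 (log2 -0.49 ± 0.079). Of 36 semaphorins, ephrins, slits and receptors, 3 were higher and 7 lower (median -0.053). The secreted guidance protein Slit2 went from 342, 334 and 364 to 730.2, 737 and 682 (log2 1.01 ± 0.062; adjusted p = 6.28e-06). Nrp1, a receptor shared by semaphorins and vascular growth factors, rose at 120 minutes in both genotypes, at 270.3, 245 and 851 in wild-type and 159.9, 159 and 495 in mutant cells, and was lower (log2 -0.68 ± 0.063; adjusted p = 0.000104), with its 3 other probe sets between -0.70 and -0.48. Sema3b was lower (-0.76 ± 0.10) and Sema5a higher (0.55 ± 0.10).

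Of 23 receptor tyrosine kinases, Met, the receptor for hepatocyte growth factor, was higher (0.34 ± 0.057), and Ror1 (-0.33 ± 0.063), Ddr2 (-0.24 ± 0.042) and Pdgfrb (-0.23 ± 0.049) were lower. The thrombin receptor F2r, which like LPAR1 couples to several G proteins, was abundant and higher, from 1488, 1787 and 2031 to 2485, 2529 and 2764 (log2 0.56 ± 0.058; adjusted p = 0.000197). Its difference was 0.73 at 0, 0.50 at 60 and 0.44 at 120 minutes. Of 20 cytokines and cytokine receptors, 3 were higher and 6 lower (median -0.088), led by Lifr and Osmr. Il11 rose over time in both genotypes and less in mutant arrays, at 25.1, 69.4 and 297 in wild-type and 21.4, 38.5 and 103 in mutant cells, a difference in course that was not tested. Kitl (0.29 ± 0.054) and Csf1 (0.28 ± 0.065), ligands of receptor kinases, were higher, but their other probe sets did not all pass: those of Csf1 gave -0.016, -0.12 and 0.17, and 2 of Kitl gave 0.25 and 0.099.

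Genes of innate immunity went in both directions. Of 17 chemokines and receptors, 3 were higher, the Ccl genes above, and 2 lower, among them the atypical receptor Ackr3 (-0.36 ± 0.057). Of 13 complement and acute phase genes, 2 were higher and 2 lower: the protease C1s1 went from 84.7, 71.2 and 70.8 to 246, 225 and 224 (log2 1.44 ± 0.072; adjusted p = 1.75e-06), and the pentraxin Ptx3 from 322, 340.0 and 446 to 92.8, 90.1 and 109.9 (log2 -1.75 ± 0.072; adjusted p = 4.90e-07). With 1 array left out the counts of that list ran from 1 to 2 higher and 1 to 3 lower. Of 22 interferon-stimulated genes, 5 were higher and 3 lower (median -0.013), and 2 to 5 higher and 2 to 5 lower with 1 array left out. Ifit1 (0.42 ± 0.11), Ifit2 (0.41 ± 0.067) and Gbp2 (0.42 ± 0.056) were higher, and Oas1a was lower, from 84.6, 80.4 and 68.5 to 49.0, 38.9 and 31.6 (log2 -0.76 ± 0.096). Of 17 genes of antigen presentation by MHC class I, 7 were lower and none was higher (median -0.21), among them H2-K1 (-0.30 ± 0.046; 0.0015 at another probe set), H2-M3 (-0.38 ± 0.069), the peptide-trimming enzyme Erap1 (-0.31 ± 0.075) and the chaperone Calr (-0.33 ± 0.051). Class I genes are near-identical in sequence, so their probe sets may not be separate.

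Enzymes of detoxification differed by family member. Of 35 aldo-keto reductases, aldehyde dehydrogenases and P450 enzymes, 5 were higher and 8 lower (median 0.014). Akr1c13 went from 177, 170.4 and 166 to 52.2, 46.8 and 49.2 (log2 -1.52 ± 0.080; adjusted p = 2.32e-06), while its relative Akr1c12 went the other way, from 13.1, 30.9 and 29.6 to 72.1, 70.7 and 59.0 (log2 1.07 ± 0.16), with its wild-type arrays below the level of the filter. The carbonyl reductase Cbr1 was lower, from 182, 152 and 149.9 to 103, 74.5 and 58.9 (log2 -0.92 ± 0.092), and so was Cbr2 (-0.55 ± 0.047). Of 35 glutathione enzymes and NRF2 targets, 7 were higher and 6 lower (median -0.035), and 4 to 8 higher and 4 to 7 lower with 1 array left out. The microsomal glutathione transferases Mgst1 and Mgst2 were the highest. Mgst1 went from 1374, 1247 and 1091 to 2223, 2017 and 1893 (log2 0.72 ± 0.046; adjusted p = 8.49e-06) and Mgst2 from 81.9, 69.8 and 70.0 to 164, 138 and 142 (log2 0.87 ± 0.076), while the peroxidase Gpx7 was lower (-0.53 ± 0.055).

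Of 50 genes of peroxisomes and fatty acid oxidation, 7 were higher and 4 lower (median 0.021). Apart from Phyh and Pdk4, the largest was Crot, which exports shortened fatty acids from peroxisomes, from 2032, 1813 and 1459 to 2651, 2476 and 2069 (log2 0.44 ± 0.044). Lpl, the lipase that releases fatty acids from lipoproteins, was lower at both probe sets, from 902, 839.8 and 753 to 497, 438 and 382 (log2 -0.90 ± 0.053; adjusted p = 4.82e-06). Of 59 nuclear genes of oxidative phosphorylation, 8 were higher and 3 lower (median 0.040; 4 to 9 higher and 1 to 2 lower with 1 array left out), led by Cox8a, from 2813, 2474 and 2515 to 3718, 3359.9 and 3166 (log2 0.39 ± 0.042). Of 20 genes of cholesterol synthesis and uptake, 2 were higher and 4 lower, with Mvd at -0.40 ± 0.056 and Tm7sf2 at 0.39 ± 0.052, and 1 to 2 higher and 1 to 2 lower with 1 array left out. Bnip3, a mitochondrial protein that hypoxia induces and that promotes removal of mitochondria, was abundant and higher, from 1099, 976 and 796 to 1717, 1674 and 1316 (log2 0.71 ± 0.048; adjusted p = 1.30e-05).

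Genes of amino acid supply and of protein stress were lower in larger numbers. Of 29 genes of serine, one-carbon and amino acid synthesis, 13 were lower and 2 higher (median -0.14). Cth, which makes cysteine, went from 275, 311 and 340.2 to 155, 189 and 156 (log2 -0.83 ± 0.081; adjusted p = 0.000137), Gpt2, an alanine transaminase, from 684, 676 and 535 to 481, 418 and 349 (log2 -0.59 ± 0.057), and Glul, glutamine synthetase, from 187, 204 and 306 to 143, 149 and 146 (log2 -0.58 ± 0.11). The higher ones were Aldh1l1 and the methionine synthase Mtr (0.35 ± 0.081). Over the fits that left out 1 array, 7 to 10 members of this list passed.

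Of 24 amino acid transporters, 2 were higher and 6 lower (median -0.11). Slc7a5, which imports large neutral amino acids, was lower (-0.58 ± 0.051), as was Slc1a5, which imports glutamine (-0.30 ± 0.073), while Slc16a10 was higher, from 197, 190.4 and 293 to 319, 327 and 503 (log2 0.71 ± 0.060; 0.53 and 0.083 at other probe sets). Of 36 genes of the unfolded protein and integrated stress responses, 15 were lower and 2 higher (median -0.12). Herpud1 (-0.47 ± 0.056), Pdia6 (-0.45 ± 0.049), the glutathione-degrading Chac1 (-0.45 ± 0.046) and the transcription factor Atf5 (-0.35 ± 0.048) were lower. Chac1 peaked at 60 minutes in both genotypes, at 944, 3014 and 860.5 and 687, 2230.0 and 613, and its difference was alike at the 3 times (-0.45, -0.43 and -0.48). Over the fits that left out 1 array, 11 to 14 members passed, with none higher when the array was one of 0 minutes.

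Of 36 lysosomal genes, 13 were lower and 1 higher (median -0.097). Glb1, lysosomal beta-galactosidase, went from 1262, 1140.3 and 1099.8 to 942, 856 and 836 (log2 -0.40 ± 0.047; adjusted p = 0.000373), and the proteases Lgmn (-0.34 ± 0.044) and Ctsd (-0.27 ± 0.040) and the mannosidase Man2b1 (-0.34 ± 0.051) were lower, while the lipase Lipa was higher (0.27 ± 0.051; 0.20 and 0.094, not passing, at other probe sets). Over the fits that left out 1 array, 6 to 12 members passed, the fewest without an array of 60 minutes. The receptor Igf2r, which delivers enzymes to lysosomes, was higher at both probe sets, from 320.2, 283 and 263 to 441, 509.6 and 421 (log2 0.64 ± 0.074; adjusted p = 0.000403). Of 31 proteasome subunits, 4 were higher and none lower (median 0.038), led by Psma5 (0.33 ± 0.049), and 2 to 3 higher and 0 to 1 lower with 1 array left out. Of 42 cytosolic ribosomal proteins, 3 were higher and none lower (median -0.010), with differences of 0.12 to 0.13 for those that passed, and 0 to 2 higher and 0 to 1 lower with 1 array left out.

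**Figure D4:**
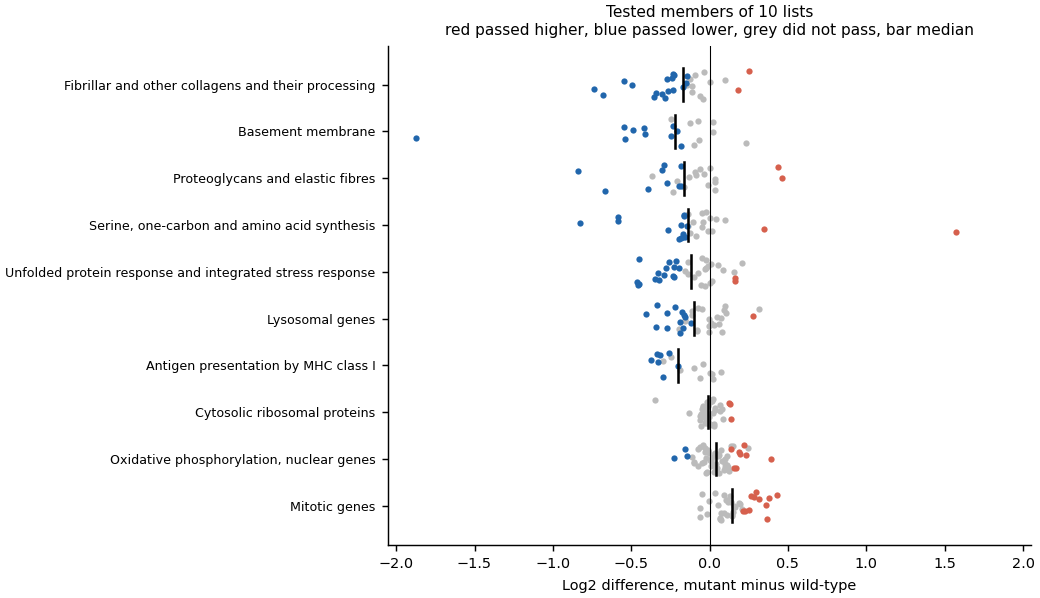
Log2 difference of mutant minus wild-type for every tested member of 10 gene lists, 1 point per gene (red passed higher, blue passed lower, grey did not pass), with a black bar at the median of each list. The bars of the collagen, basement membrane, proteoglycan, amino acid synthesis, stress response, lysosomal and MHC class I lists lie left of 0 and that of the mitotic genes right of it (0.14), while ribosomal proteins lie close to 0.

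Mitotic genes were the list with the most members higher and none lower. Of 38, 11 were higher (median 0.14), and 33, 30 and 33 of the 38 had a positive value at 0, 60 and 120 minutes. Over all 10916 genes tested, 5936, 6370 and 5171 had one. Incenp, which anchors the Aurora B kinase, had 269, 265 and 160.0 in wild-type and 383, 337 and 228 in mutant cells (log2 0.43 ± 0.064; adjusted p = 0.00181), and fell by 120 minutes in both genotypes, so that ranges overlapped across times only. Racgap1 (0.38 ± 0.056) and Ect2 (0.37 ± 0.067), which act together at cell division, and the motor Kif11 (0.36 ± 0.075) were among the others, though another probe set of Racgap1 gave 0.021. Over the fits that left out 1 array, 7 to 12 members passed. Of 26 cyclins, cyclin-dependent kinases and inhibitors, 6 were higher and 2 lower. Cdk4, a kinase of G1 phase, went from 2564, 2271 and 2120.1 to 2891, 2723 and 2806 (log2 0.28 ± 0.050), and Ccnd2, its partner cyclin D2, was lower from 3348, 3159.5 and 3298 to 2879.9, 2767 and 2763 (log2 -0.22 ± 0.040; all 6 other probe sets between -0.38 and -0.29). Of 35 DNA replication genes, 2 were higher and 1 lower (median 0.066), and 1 to 3 higher and 0 to 1 lower with 1 array left out.

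Transcription factors of mesenchymal development gave 6 higher and 14 lower of 44 (median -0.073). Irx1 and Irx3, homeobox genes of the Iroquois family, were lower, from 156, 118 and 180.0 to 88.8, 58.1 and 74.7 (log2 -0.89 ± 0.093) and from 209, 324 and 307 to 120.0, 187 and 132 (log2 -0.87 ± 0.087). Sox6, which acts in cartilage and muscle, went from 433, 579 and 524 to 279.6, 364 and 275 (log2 -0.71 ± 0.069; adjusted p = 0.000132), with its 3 other probe sets between -0.70 and -0.30, and the forkhead gene Foxf2 was higher, from 208, 183 and 270.3 to 364, 314 and 414 (log2 0.69 ± 0.064). Of 15 Hox genes tested, 4 were higher, the group A genes Hoxa2, Hoxa3, Hoxa5 and Hoxa7, and Hoxd8 was lower, though another probe set of Hoxa3 gave -0.016. Hoxa5 fell over time in both genotypes, at 764, 518 and 445 and 962, 703 and 608 (log2 0.40 ± 0.053), and with 1 array left out the Hox counts ran from 2 to 4 higher and 0 to 1 lower. The forkhead gene Foxj3 was the abundant gene with the largest lower difference, from 4227, 3741 and 3255 to 1849, 1611 and 1595 (log2 -1.14 ± 0.048; adjusted p = 5.25e-07), and a second probe set gave -2.45.

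The Notch, Wnt, TGF-beta and BMP, and imprinted gene lists had calls in both directions. Of these, only the Wnt list had a smaller share of calls than all genes tested (19.3%). In the Notch list 2 of 20 were higher and 2 lower: the ligand Jag1 went from 438, 536 and 568 to 289, 387 and 379 (log2 -0.53 ± 0.057, with other probe sets at -0.62 and 0.11), and the target Hes1 gave 14.8, 178 and 104 in wild-type and 3.18, 45.3 and 34.8 in mutant cells, rising at 60 minutes in both (log2 -1.20 ± 0.16, and -0.72 at an offset of 64). In the Wnt list 1 of 31 was higher and 3 lower, with Lgr4 at -0.45 ± 0.056 and Fzd1 at 0.30 ± 0.047 (0.021 at its other probe set), and 1 to 2 higher and 2 to 5 lower with 1 array left out. In the TGF-beta and BMP list 3 of 37 were higher and 5 lower, with Fstl1, an abundant secreted protein, from 3163, 3164 and 3282 to 2344, 2370.3 and 2501 (log2 -0.41 ± 0.040). Of 15 imprinted genes, 2 were higher and 2 lower, and 2 higher and 1 to 4 lower with 1 array left out. Dlk1, a transmembrane relative of the Notch ligands, went from 70.4, 73.0 and 72.8 to 16.2, 19.3 and 29.0, below the level of the filter (log2 -1.25 ± 0.12, and -0.67 at an offset of 64).

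Immediate early transcription factors, the first genes that serum and growth factors induce, gave 11 lower and none higher of 31 (median -0.14). A positive value was seen for 11 of the 31 at 0, 9 at 60 and 4 at 120 minutes. Of all 10916 genes tested, 5936, 6370 and 5171 had a positive value at these times, also the fewest at 120 minutes. Fos, a subunit of AP-1, peaked at 60 minutes in both genotypes, at 633, 2516 and 136 in wild-type and 595, 1486 and 59.7 in mutant cells (log2 -0.62 ± 0.13; adjusted p = 0.0119). Ier2 also peaked at 60 minutes in both genotypes, at 1442, 3325 and 812 in wild-type and 1223, 2207 and 642 in mutant cells, with differences of -0.23, -0.59 and -0.33. Klf2 gave 2651, 4089.5 and 2711 and 2061, 2723 and 2235 (log2 -0.41 ± 0.057; adjusted p = 0.00127). Over the fits that left out 1 array, 7 to 14 members passed. Of 25 p53 targets, 3 were higher and 3 lower, and 0 to 4 higher and 1 to 3 lower with 1 array left out.

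Markers of cells other than fibroblasts were mostly below the level of the filter, and the part of other cell types in the results was not tested. Of the 9 endothelial markers, 8 lay below that level in every array, and the list summed to 123 to 148 in wild-type and 156 to 186 in mutant arrays, with Cdh5 the exception. Of 5 hepatocyte markers on the array, Alb and Fgb lay below it in every array, and the list summed to 117 to 143 and 213 to 244, with Afp the member that passed. The 10 macrophage and blood markers summed to 712 to 722 in wild-type and 639 to 678 in mutant arrays, and Ptprc, Cd68, Itgam and Tyrobp lay below the level in every array. The other 6, the larger part of this list, reached the level by their mean and were tested, and 1 of them was lower in mutant cells. The 7 adipocyte markers summed to 878 to 1014 and 499 to 602, most of it Lpl, and Adipoq, Cidec, Cebpa and Lep were below the level. The 8 neural markers summed to 655 to 670 and 453 to 493: S100b (-0.80 ± 0.068), Tubb3 (-0.46 ± 0.10), Ncam1 (-0.43 ± 0.091) and Nes (-0.29 ± 0.088) were lower, and Map2, Gfap, Sox10 and Snap25 were below the level. With 1 array left out, 2 to 4 of the neural markers were lower. The 8 muscle markers summed to 195 to 490 and 192 to 304, and Acta1, the skeletal actin, rose over time in both genotypes and was lower in mutant cells (-0.80 ± 0.14). The 10 epithelial markers summed to 1510 to 1712 and 1442 to 1780, most of it Krt14, which did not pass (0.033 ± 0.048).

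Separate probe sets of a gene gave a further reading within the same arrays. When all probe sets were fitted, 2566 of 18911 passed (13.6%), with 6.44% higher and 7.13% lower. Of 4802 genes with at least 2 fitted probe sets, all sets passed higher for 101 and lower for 145 (together 142 to 181 with 1 array left out), some passed in each direction for 11, and the sets differed in whether they passed for 889. For Lpar1, S1pr2, Grk6, Itpr2, Col4a1, Col3a1, Ddr2, Prrx1, H2-K1, Glul, Ccnd2, Kif11, Hoxa5 and Ncam1, named above, at least 1 other probe set above the level had the same sign and did not pass. Among genes whose sets all passed, the higher ones with the largest smallest difference were AI662270, Dmrtc1a, Cytip and Olfm1, followed by Pdzk1ip1, from 360.1, 323 and 305 to 681, 598 and 542 (log2 0.85 ± 0.055 and 0.94). The lower ones were Plpp3, Cxxc5, Ucma and Foxj3, followed by Ablim1, an actin-binding protein, at 277, 290.5 and 526 in wild-type and 144, 149 and 235 in mutant cells (log2 -0.96 ± 0.070 and -0.97), and Tacc1, from 259, 239 and 292 to 136, 114 and 141 (log2 -0.93 ± 0.068 and -0.91).

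Across the 10916 genes, the difference at 0 minutes correlated with that at 60 at Pearson's r of 0.705 and with that at 120 at 0.659, and the later 2 correlated at 0.602. These correlations are over genes, which are not independent replicates, and no array is shared between times. The 187 genes with a passing difference of at least 1.5-fold were chosen by a fit that favours even differences, so their values at each time are a description. Their median absolute difference was 0.80 at 0, 0.82 at 60 and 0.85 at 120 minutes, and the difference was largest at 0 minutes for 56, at 60 for 57 and at 120 for 74. For a few named genes it was not constant: Fos gave -0.088, -0.75 and -1.01 and Il11 -0.13, -0.65 and -1.40 at 0, 60 and 120 minutes, while Tagln and Epha7 were farthest apart at 0. With 1 array per genotype and time, a difference between times has no test.

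**Figure D5:**
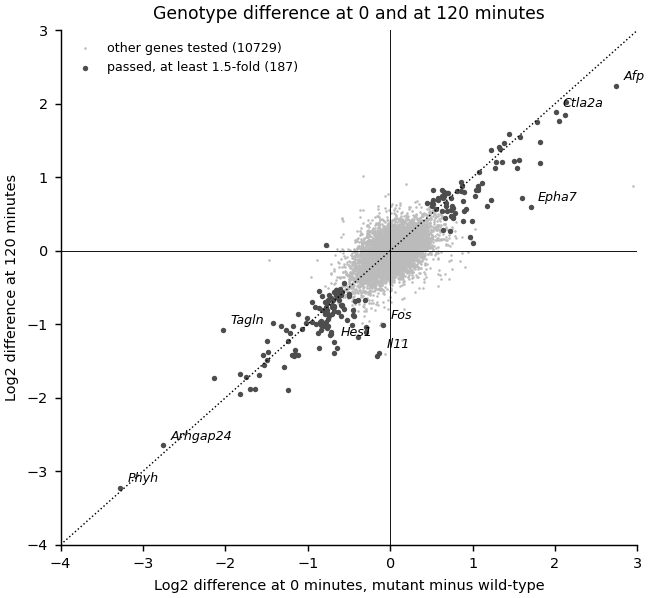
Log2 difference of mutant minus wild-type at 0 minutes (horizontal) and at 120 minutes (vertical) for all genes tested, with the 187 genes that passed with at least 1.5-fold as dark points and the dotted line where the values are equal. Most dark points lie along the line, from Phyh at the lower left to Afp at the upper right, while Fos, Il11 and Hes1 lie below it and Epha7 to its right.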

How the data were processed

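The deposited values are probe-set intensities on a linear scale, which the authors made with PLIER in Affymetrix Power Tools 1.14.3.1, per the submitters' processing notes. The background correction and scaling are not given in the sources used here. Intensities were used as deposited. Gene symbols came from GEO's platform annotation, and 34741 probe sets were matched to RefSeq (GRCm38.p6), from which the promoter sequences were also taken. Genes were fitted on log2(intensity + 16) with limma 3.58.1 in R 4.3.3 (lmFit, eBayes with trend), with genotype and time as terms, over genes with a mean of at least 39.2 (the 40th percentile), and p-values were adjusted over all genes tested by the Benjamini-Hochberg method at 0.05. The residual degrees of freedom were 2, and eBayes added 7.77 prior degrees of freedom from the variances of all genes. Time pairs the arrays by the labels, and deviations from the genotype means correlated at 0.911, 0.756 and 0.871 within times. Beside a log2 difference, ± is its SE.

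The fit was tested on simulated data of 10916 genes for this comparison: it called 82% of genes changed 1.25-fold, 98% of those changed 1.5-fold and 100% of those changed 2-fold, with 10 false calls. The simulated arrays had independent noise of the fitted size around additive effects of time and genotype. The test therefore checks the fit under its own assumptions and gives no error level for the 2112 calls. The genes named are Lpar1, the 25 with the largest difference in each direction among passing genes with 1 sign at every time, the 10 in each direction by smallest difference among genes whose probe sets all pass, the 10 in each direction among passing genes above the 90th percentile of level, up to 5 members of each list by size with passing members first, and the whole lysophospholipid list. The members and lists were chosen with earlier results of these data known. Alternatives were the offset, the filter, quantile normalization, the treatment of several probe sets, the variance trend, the block and each array left out. The results of 3 further gene lists are not reported here. Array number limits the precision.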

Additional observations from a re-analysis of the deposited data

Results flagged for a closer look

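Probe sets outside the genes compared, because the annotation gives them no gene symbol or several, were fitted in the same way: 2794 lay above the filter level, 2226 with no symbol and 568 with several. Of those with no symbol, 10 passed and were at least 1.5-fold higher in mutant cells at all 3 times, and 4 were lower. Of those with several symbols, 4 were higher and 4 lower in that way. The largest, with no symbol, had 136, 135 and 144 at 0, 60 and 120 minutes in wild-type and 1431, 1449 and 1368 in mutant cells (log2 3.21 ± 0.063; limma adjusted p = 2.96e-08). The 2 lowest, also with no symbol, had log2 differences of -1.81 and -1.78, and the brighter of them went from 1827, 1526 and 2079 to 457, 449.9 and 657.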

How the results depend on the processing

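The count of 2112 passing genes was 1397 without the variance trend and 89 without the block, the fit that ignores the pairing of arrays by time, and ran from 1373 to 2163 with 1 array left out. Other settings gave 1573 (mean of a gene's probe sets) to 2500 (quantile normalization). The count of 122 genes at least 1.5-fold apart at all times was 74 at an offset of 64, 45 with the 60th percentile filter and 44 at a limit of 2-fold. The 246 genes whose probe sets all passed in 1 direction were 153 without the filter, 163 without the trend and 10 without the block, and 142 to 181 with 1 array left out. Lpar1 kept its difference of 0.18 but not its call without the trend (adjusted p = 0.0771) and without the block (0.321), and ranged from 0.159 to 0.195 with 1 array left out. Gnb1 changed sign, to -0.0063, with the mean of all its probe sets, which disagree. Of 273 named genes that passed, 63 kept the call under every setting in which they were tested, and 191 under every such setting other than the fit without the block; the 60th percentile filter tested 180 of the 273. The lists' counts with each array left out and with quantile normalization were chosen after seeing the data. Without the block the collagen list had 2 lower members and the basement membrane list 3. Quantile normalization turned the medians of the interferon-stimulated (0.0089) and Wnt (0.017) lists positive. With 1 array per genotype and time, no difference between times could be tested, and low intensities limit the size of differences through the offset. The cause of each change was not tested.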

Other observations

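Further lists are described here. Of 9 ion channel genes tested, 1 was higher and 3 lower, against 10.4% and 8.92% of all genes tested. Kcnab2, a potassium channel beta subunit, had 215, 195 and 212 at 0, 60 and 120 minutes in wild-type and 118, 115 and 109 in mutant cells (log2 -0.78 ± 0.072; limma adjusted p = 9.65e-05), and Cacna1a, the pore of a neuronal calcium channel, went from 195, 156 and 112 to 109, 90.01 and 51.3 (log2 -0.80 ± 0.082). The mechanically gated channel Piezo1 was lower within each time (-0.36 ± 0.055). Of 21 cytosolic aminoacyl-tRNA synthetase genes, 3 were lower, Cars (-0.30 ± 0.084), Gars (-0.27 ± 0.042) and Nars (-0.14 ± 0.044), and the scaffold protein Aimp2 was higher (0.16 ± 0.049). With 1 array left out the counts of that list ran from 0 to 1 higher and 1 to 2 lower.

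Among abundant genes not described above, the tubulin gene Tubb2b went from 944, 891 and 875 to 1591, 1515 and 1291 (log2 0.68 ± 0.054; limma adjusted p = 3.87e-05) and Fam162a from 1570.0, 1473 and 1592 to 2302, 2341 and 2249 (log2 0.57 ± 0.047; -0.077 at its other probe set). In the TGF-beta and BMP list, the growth factor gene Gdf5 was higher (0.57 ± 0.14) and the activin receptor gene Acvr2a lower (-0.43 ± 0.061). The activin subunit gene Inhba rose over time in both genotypes, at 378, 1361 and 2404 in wild-type and 324, 1309 and 1458 in mutant cells, with differences of -0.22, -0.055 and -0.72 at 0, 60 and 120 minutes.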
